A study of Mus musculus with 50 samples.

Results

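The genes described here are 37 genes of glutathione metabolism, the pentose phosphate pathway and the NRF2 response, chosen by name from textbook membership of these pathways. All 37 were among the 12185 genes of the liver expression table, and 36 had a mean value of at least 1 and entered the tests. Gsta1, with a mean of 0.47, did not. They comprised 21 glutathione transferases, 4 genes of glutathione supply (Gclc, Gclm, Gss and Gsr), 4 enzymes of the pentose phosphate pathway (G6pdx, Pgd, Taldo1 and Tkt), 6 redox and detoxification enzymes (Nqo1, Srxn1, Txnrd1, Ephx1, Hmox1 and Ugdh) and the regulators Nfe2l2 and Keap1.

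Liver mRNA was sequenced from male N2 offspring, labelled as adult and F2, of a cross in which F1 mice of B6.A4 and B6, carrying an A/J chromosome 4, were mated to F1 mice of B6.A6 and B6, carrying an A/J chromosome 6, and that had been fasted overnight before the caudate lobe was taken. B6.A4 and B6.A6 are C57BL/6J (B6) mice with that 1 chromosome substituted, so A/J alleles can segregate on chromosomes 4 and 6 and the remaining chromosomes are of C57BL/6J origin in every animal. Although the labels read adult, the study's methods put the mice at a few weeks of age. All 50 libraries belonged to this 1 group, with no treatment and no untreated control, and genotypes were not used here. The titles give each library a library number and an animal number. The animal numbers start again at the library numbered 31, so libraries 1 to 30 (n = 28) are called the first library set and libraries 31 to 59 (n = 22) the second. The 48 animal numbers covered a span of 182 with a gap of 41 numbers after the 9 libraries with the lowest, and 2 of them stood on 2 libraries each. What a set or an animal number stands for is not stated in the labels.

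Glutathione is a small peptide that neutralizes peroxides and reactive chemicals. Glutathione transferases attach it to drugs, toxins and products of lipid oxidation. Its synthesis starts with glutamate-cysteine ligase, made of a catalytic (Gclc) and a modifier subunit (Gclm), and ends with glutathione synthetase (Gss). Glutathione reductase (Gsr) returns the oxidized form to the reduced form with NADPH, which the pentose phosphate enzymes G6pdx and Pgd supply. NRF2, the product of Nfe2l2, is a transcription factor that KEAP1 holds in the cytoplasm and marks for degradation. Oxidants and electrophiles free it to bind antioxidant response elements and raise many of these genes, for which Nqo1 is the customary readout in liver.

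The element's core reads TGACNNNGC, and the second form TGAGNNNGC differs from it at 1 letter. Both were searched on both strands of the RefSeq promoters of GRCm38.p6, from 250 bases before to 50 after the start. A promoter was listed for 32 members, and the other 5 were Gsta4, Gstt2, Gclc, Gsr and Hmox1. TGACNNNGC was found for 11 of the 32 (34.4%), against 14% of all genes with a promoter listed and 12.4% of single promoters. TGAGNNNGC was found for 7 (21.9%), close to the 19.8% of all genes and 17.6% of single promoters. Shown here are all matches before the start in members whose levels changed in the comparisons reported further on, plus Gstp2, written along the gene's strand with 10 bases on either side and the match, or its reverse complement, in capitals.
Gclm, chr3:122245413-122245441, plus strand: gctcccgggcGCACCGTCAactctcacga
Ugdh, chr5:65435956-65435984, minus strand: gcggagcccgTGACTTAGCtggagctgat
Ugdh, chr5:65435918-65435946, minus strand: tcctcaagggGCGTGGTCAtacagttcgg
Txnrd1, chr10:82859104-82859132, plus strand: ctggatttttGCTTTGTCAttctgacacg
Gsta3, chr1:21240454-21240482, plus strand: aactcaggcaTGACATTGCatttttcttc
Gstm7, chr3:107931725-107931753, minus strand: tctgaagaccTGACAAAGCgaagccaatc
Taldo1, chr7:141391929-141391957, plus strand: tgaggcttacTGAGCGCGCgtctcagtag
Mgst1, chr6:138140461-138140489, plus strand: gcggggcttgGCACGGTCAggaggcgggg
Gstp1, chr19:4037968-4037996, minus strand: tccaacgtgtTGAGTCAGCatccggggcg
Gstp1, chr19:4037903-4037931, minus strand: gcctacgcgtGCGTCCTCActctgagtac
Gstp2, chr19:4042292-4042320, minus strand: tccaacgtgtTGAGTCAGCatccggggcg
The first stretch of Gstp1 and that of Gstp2 are identical. In Ugdh, which makes UDP-glucuronic acid for glucuronidation, the later of the 2 matches lay 85 bases before the start. A match is a run of letters and not a binding site shown by an assay.

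Levels of the members spanned 3 orders of magnitude. Values are CPM, read counts scaled to a common library size, after the authors' further scaling between libraries. Libraries held 11965594 to 29976557 counted reads, so a single read was worth 0.032 to 0.086. The transferases summed to between 3378 and 5959 in a library, with a median of 4768, and Mgst1, Gstp1, Gstm1 and Gstz1 made up 73.3% to 84.5% of that sum. Mgst1, a membrane-bound transferase and peroxidase, was highest at 1915 ± 256.1 (SD, n = 50), followed by Gstp1 at 767 ± 260, Gstm1 at 612 ± 122 and Gstz1, which also degrades tyrosine, at 519 ± 41.4. Divided by exon length, the order of the leading genes was Mgst1 (951 per kilobase), Gstp1 (495), Gstm1 (415), Ephx1 (189) and Gstz1 (102). The values of Gstp1 and Gstm1 overlapped widely between libraries.

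**Figure D1:**
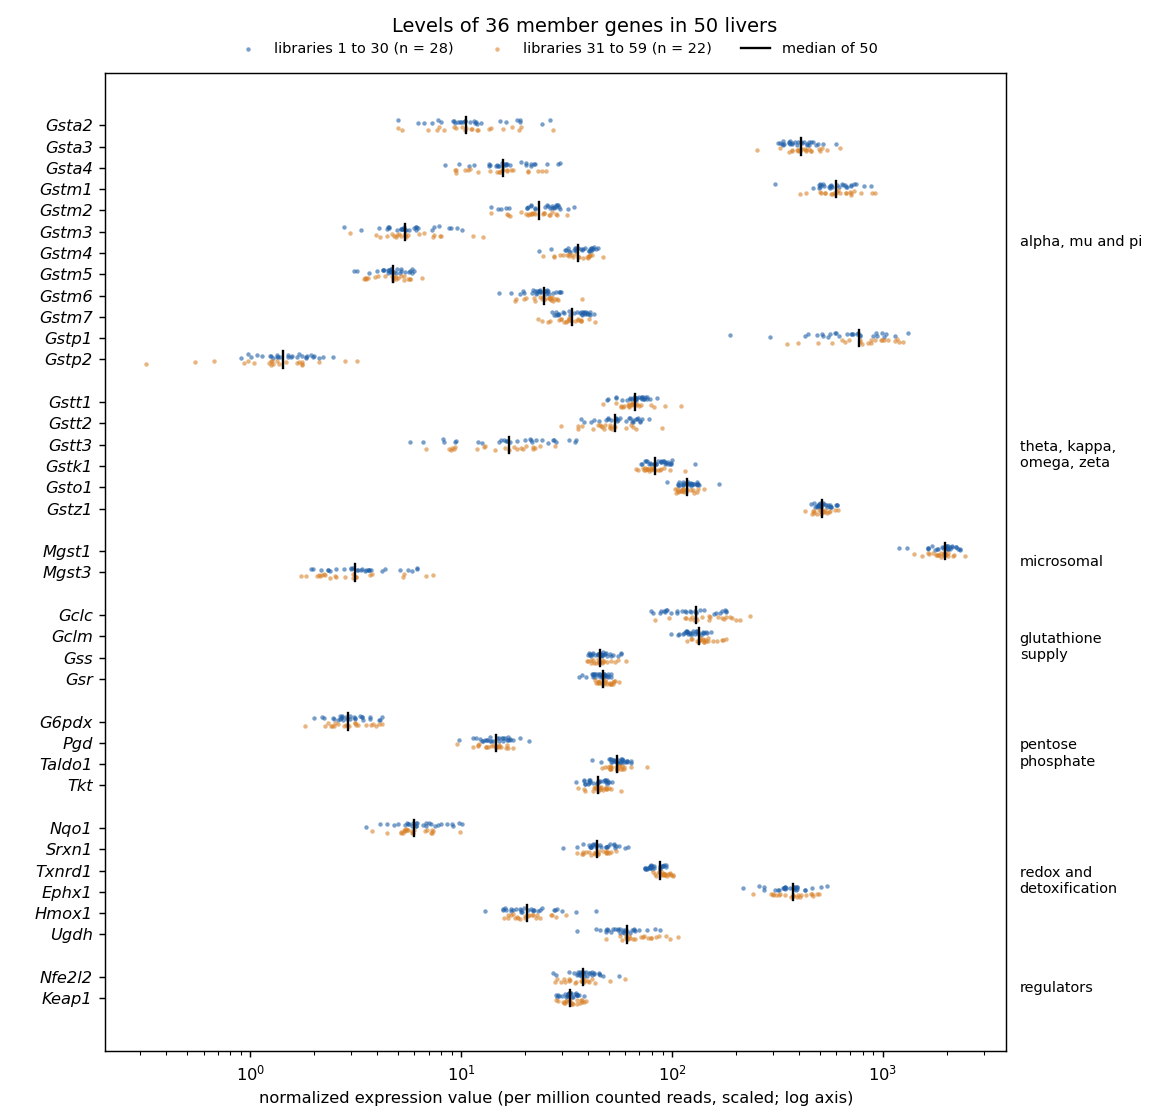
Normalized value (log axis) of the 36 tested members in each of 50 libraries, coloured by library set, with the median as a black bar. Mgst1 lies highest, with a median of 1959, and Gstp2 lowest, with a median of 1.42, and both sets overlap for every gene.

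Within the mu class, a cluster on chromosome 3, Gstm1 stood far above the rest. Gstm4 (36.1 ± 5.35), Gstm7 (33.8 ± 5.08), Gstm6 (24.3 ± 3.86) and Gstm2 (23.5 ± 5.0) followed, and Gstm3 (6.02 ± 2.02) and Gstm5 (4.72 ± 0.78) were lowest. In the alpha class, Gsta3 reached 415 ± 72.1, whereas Gsta4, which acts on lipid aldehydes, and Gsta2 had 16.6 ± 5.06 and 12 ± 5.17. Gsta1 had at most 3 reads in 18 of 50 libraries and 0 in 1 of them. The theta class held Gstt1 at 67.1 ± 10.96, Gstt2 at 54.5 ± 12.2 and Gstt3 at 17.6 ± 7.46. Gsto1 had 119 ± 12.2, Gstk1 85.0 ± 11.6, Mgst3 3.43 ± 1.38 and Gstp2 1.51 ± 0.53.

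Several of these genes have near copies. Of the stretches of 31 bases in the annotated transcripts, 92.9% of Gsta1, 60.7% of Gsta2, 60.3% of Gstp2, 38.5% of Gstp1, 37.7% of Gstm3 and 28.8% of Gstm1 also occurred in another gene, so the division of reads among these copies is uncertain. The pseudogene Gstp-ps on chromosome 1, 68.1% of whose stretches occur in Gstp1, had 294 ± 102, and its value followed that of Gstp1 with r = 0.99 over the 50 libraries.

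Among the supply genes, Gclc had 136 ± 37.7, Gclm 134 ± 17.3, Gsr 46.7 ± 4.14 and Gss 46.4 ± 4.96. Of the pentose phosphate enzymes, Taldo1 (55.2 ± 5.58) and Tkt (44.6 ± 4.64) of the non-oxidative branch exceeded Pgd (14.5 ± 2.25) and G6pdx (3.01 ± 0.60) of the NADPH-producing branch, with no overlap between libraries. Ephx1, an epoxide hydrolase, led the redox and detoxification enzymes with 369 ± 69.7. Txnrd1 (thioredoxin reductase) followed with 86.1 ± 7.53, Ugdh with 64.5 ± 14.5, Srxn1, which repairs peroxiredoxins, with 45.4 ± 6.40, and Hmox1, which degrades heme, with 21.6 ± 5.58. Nqo1, a quinone reductase on chromosome 8, was low at 6.35 ± 1.52, with a lowest value of 3.55, a median of 5.94 and a highest of 10.1. A median of 88 reads per library stood behind it, and 18.6% of its variance was counting error. Nfe2l2 had 38.2 ± 6.51 and Keap1 33.1 ± 2.77.

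Variation between livers was largest for 4 members when each coefficient of variation was ranked among the 200 genes nearest in mean value. Gsta2 (43.1%) and Gstt3 (42.5%) stood at the 97.5th percentile, Gsta4 (30.5%) at the 96th and Gclc (27.6%) at the 95th. Gstt3 ran from 5.73 over a median of 16.9 to 34.9, a 6.09-fold range, and Gsta2 from 4.99 over 10.5 to 27.2. Gstz1 (7.98%) and Keap1 (8.37%) were the steadiest, at the 7th and 7.5th percentiles, with ranges of 428 to 613 and 28.1 to 39. Of the 36 tested members, 25 varied more than the median of their neighbours in level, including 11 of the 12 alpha, mu and pi class genes. For G6pdx 56.1% and for Gstm5 52.5% of the variance was counting error, so little can be said of these 2.

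The library numbered 44 held the highest value of 11 of the 37 members (29.7%), and of 9.45% of all genes. Its 13694310 counted reads were close to the median of 13620584. Gstt1, for example, reached 110 there, and the highest value in the first set was 84.6. Hepatocyte markers were present in every library (6 of 6 genes, summed 72525 to 117697), and markers of other cells were low beside them, at 181 to 324 for Kupffer cells and leukocytes, 147 to 225 for endothelium, 64.0 to 155 for stellate cells, 3.43 to 9.50 for cholangiocytes and 94.7 to 302 for erythroid cells. Krt7 was not among the genes listed. In whole liver, fewer cells of a type and less RNA per cell cannot be told apart.

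Between the library sets, 5 of 36 members were higher in the second set and 0 were lower (limma on log2(value + 0.5), Benjamini-Hochberg over 11436 genes, adjusted p under 0.05). Of all genes, 7.07% were higher and 6.42% lower. An unadjusted p under 0.05 was found for 7 of the 36 members and for 29.1% of all genes. Glutathione supply held 3 of the 5 genes, Gclm, Gclc and Gsr, and the others were Txnrd1 and Ugdh. The remaining supply gene, Gss, did not differ (log2 difference -0.01 ± 0.043, limma's adjusted p = 0.889). The median difference was -0.02 over the members and -0.01 over all genes. Of the cell markers, the stellate genes Des and Colec11 were lower in the second set, and the endothelial Kdr and the periportal Cps1 were higher. The 5 stellate genes summed to 74.9 to 142 in the first and 64.0 to 155 in the second set, the 5 endothelial genes to 147 to 225 and 148 to 224, and the 6 periportal genes to 5457 to 10968 and 7593 to 12591. Their part in the members' differences was not tested.

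Txnrd1 differed with the smallest p. It had 74.1 to 94.0 with a median of 79.6 in the first set and 81.2 to 101.1 with a median of 91.3 in the second. All 22 libraries of the second set lay above the first set's median, although the ranges overlapped. The difference was 0.16 ± 0.031 (SE) on the log2 scale, 1.116-fold, with limma's adjusted p = 0.000728. Gclm was 125.5 ± 13.2 in the first and 144 ± 16.5 in the second set (log2 difference 0.20 ± 0.045, adjusted p = 0.00304), with 20 of 22 second-set libraries above the first set's median. Ugdh rose from 58.6 ± 11.5 to 72.0 ± 14.7 (0.29 ± 0.078, adjusted p = 0.00969). Gclc had 123.9 ± 32.4 and 152 ± 38.6, the largest fold among the 5 members (1.23-fold, 0.30 ± 0.10, adjusted p = 0.0459), with ranges of 79.2 to 180 and 82.6 to 234. Gsr, at 45.2 ± 3.94 and 48.6 ± 3.68, was the least changed (0.10 ± 0.036, adjusted p = 0.0468).

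The calls for Gclc and Gsr were lost with the counted reads as a covariate (adjusted p = 0.107 and 0.138) or without the library numbered 24 (0.051 and 0.060). Without the library numbered 44, all 5 remained and Gstk1 and Gstt2 were lower in the second set. The number of all genes called rose there from 1542 to 2440.

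**Figure D2:**
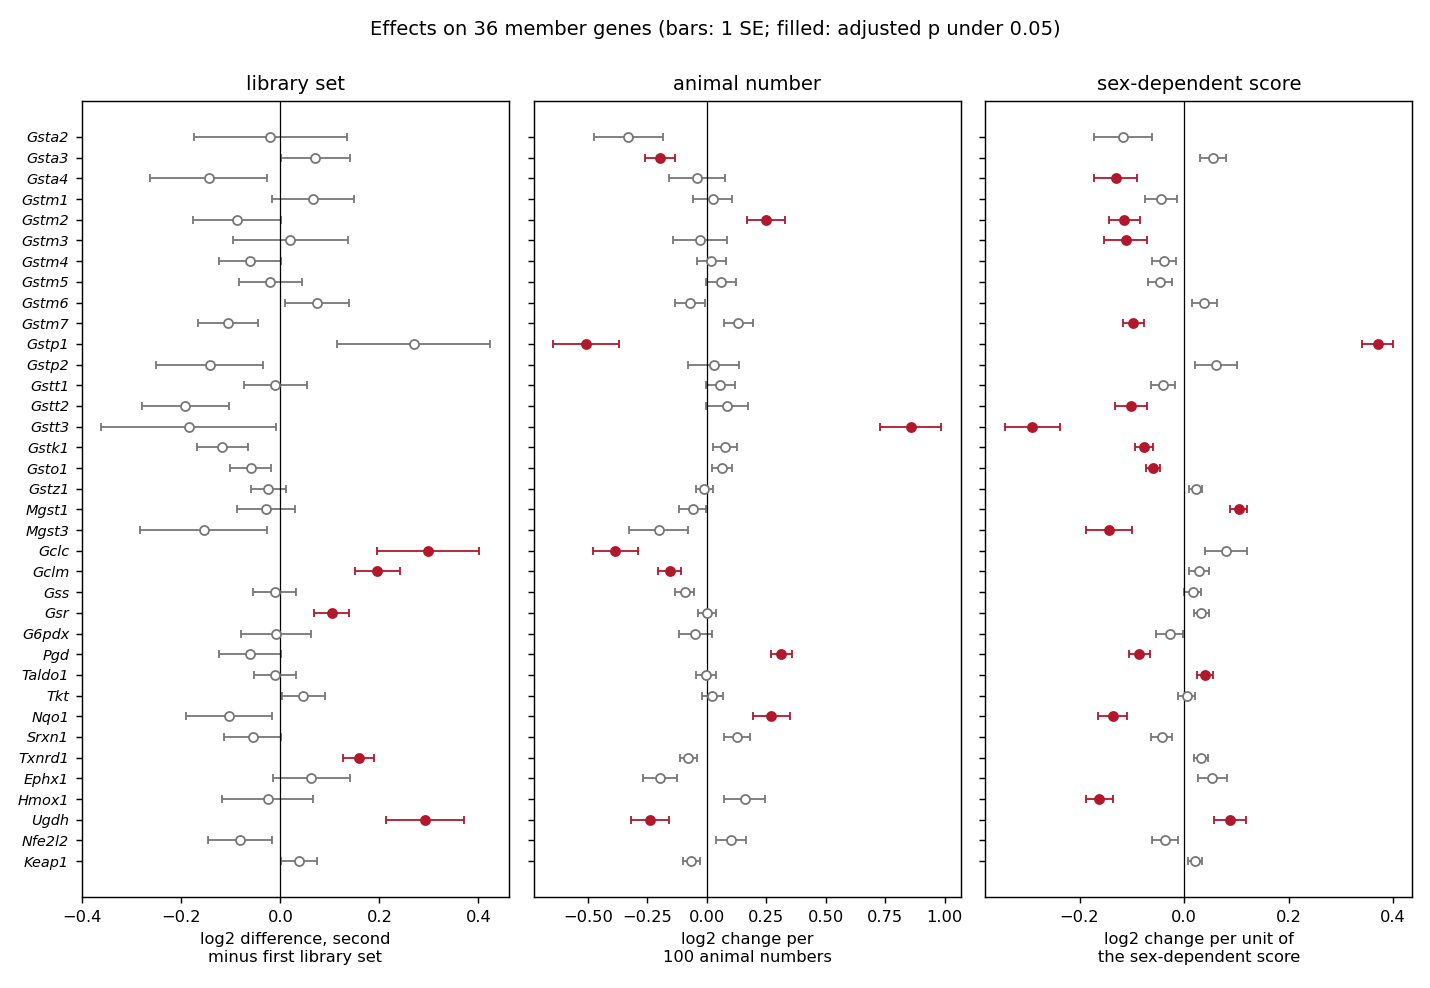
Estimated effect (limma, bars of 1 SE) on each of 36 members for library set, animal number and the score of sex-dependent genes; filled red points have an adjusted p under 0.05. Gstt3 and Gstp1 have the largest effects in the animal number and score panels, with opposite signs.

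Animal number was related to 9 of 36 members, 4 that rose with it and 5 that fell, where 7.49% of all genes rose and 6.73% fell. Both library sets covered nearly the whole span of numbers. Members that rose were Gstt3 and Gstm2 of the transferases, Pgd and Nqo1. Members that fell were the transferases Gstp1 and Gsta3, both subunits of glutamate-cysteine ligase, and Ugdh. The median slope was 0.00 per 100 numbers for the members and for all genes, with 18 members on either side of 0.

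Pgd lies on chromosome 4 (chr4:149149991-149166771, GRCm38), which segregated in the cross. It had 9.58 to 15.5 with a median of 13.1 in the 25 libraries with animal numbers below the median (low-numbered), and 13.1 to 21 with a median of 16.1 in the 25 others (high-numbered). All 25 high-numbered libraries lay above the median of the low-numbered ones, and 0 of the low-numbered above the median of the high-numbered. Its slope was 0.31 ± 0.044 on the log2 scale per 100 numbers, a 1.24-fold rise, with adjusted p = 1.88e-05 (limma). Pearson's r was 0.72 (adjusted permutation p = 0.000198, 178 relations computed) and Spearman's rho 0.77 (0.000297), and r was 0.74 without the libraries numbered 1 and 31, 0.72 within the first set and 0.73 within the second. Over the 41 libraries after the gap in the numbers r was 0.64, and over the 9 before it -0.11. Its call was kept within the first set (adjusted p = 0.00298) and not within the second.

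Gstt3 (chr10:75774115-75781414) had the steepest slope of the members. It ran from 5.73 over 11.9 to 27.9 in the low-numbered and from 15.1 over 21.5 to 34.9 in the high-numbered libraries. It rose 1.81-fold per 100 numbers (0.86 ± 0.13, adjusted p = 3.84e-05), with r = 0.68 (adjusted permutation p = 0.000198) and rho = 0.74 (0.000297). Without the 2 farthest numbers r was 0.65, within the sets 0.64 and 0.74, and before and after the gap 0.64 and 0.67. This theta class gene was also called within each set alone.

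Nqo1 had a median of 5.58 in the low-numbered and 6.74 in the high-numbered libraries (0.27 ± 0.078 per 100 numbers, adjusted p = 0.0153), with ranges of 3.55 to 8.04 and 5.04 to 10.1. Gstm2 had medians of 20.99 and 26.3 (0.25 ± 0.081, adjusted p = 0.0308). Low- and high-numbered libraries overlapped for these 2 genes, and neither was past the threshold within a single set.

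Gclc fell the most clearly of the members that decreased. It had 79.2 to 209 with a median of 165 in the low-numbered and 80.9 to 234 with a median of 116 in the high-numbered libraries (-0.38 ± 0.096, adjusted p = 0.00528). The highest value of all, in the library numbered 57, had a high animal number. Gclm followed with medians of 141 and 122.6 (-0.16 ± 0.047, adjusted p = 0.0212). Gstp1 (chr19:4035407-4037985) dropped from a median of 940 to 615, with ranges of 351 to 1315 and 187 to 991 (-0.51 ± 0.14, adjusted p = 0.0106). Gsta3 had medians of 445 and 371 (-0.20 ± 0.064, adjusted p = 0.0310), and Ugdh 71.0 and 57.6 (-0.24 ± 0.080, adjusted p = 0.0355). All 5 slopes were negative within both sets, but 0 of the 5 reached the threshold within a set. For Gclc, Gclm, Gstp1, Gsta3 and Ugdh, r with animal number was -0.49, -0.43, -0.46, -0.40 and -0.39 over all 50 libraries. Over the 41 libraries after the gap in the numbers it was -0.37, -0.22, -0.48, -0.29 and -0.20. Over the 9 before the gap it was -0.63, -0.50, -0.25, -0.05 and -0.19.

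Markers of cell types moved with animal number too. The erythroid genes Hbb-bs, Hbb-bt, Hba-a1 and Hba-a2 rose, Alas2 fell, and the 5 summed to 94.7 to 264 in the low-numbered and 165 to 302 in the high-numbered libraries. Arg1, Hal and Cps1 of the 6 periportal genes rose, and this list summed to 5457 to 9477 and 7315 to 12591. Of the hepatocyte genes Alb rose and Hnf4a fell, and of the stellate genes Dcn and Colec11 rose, the 5 summing to 64.0 to 142 and 90.6 to 155. The endothelial Lyve1 rose as well. The part of these genes in the members' slopes was not tested.

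**Figure D3:**
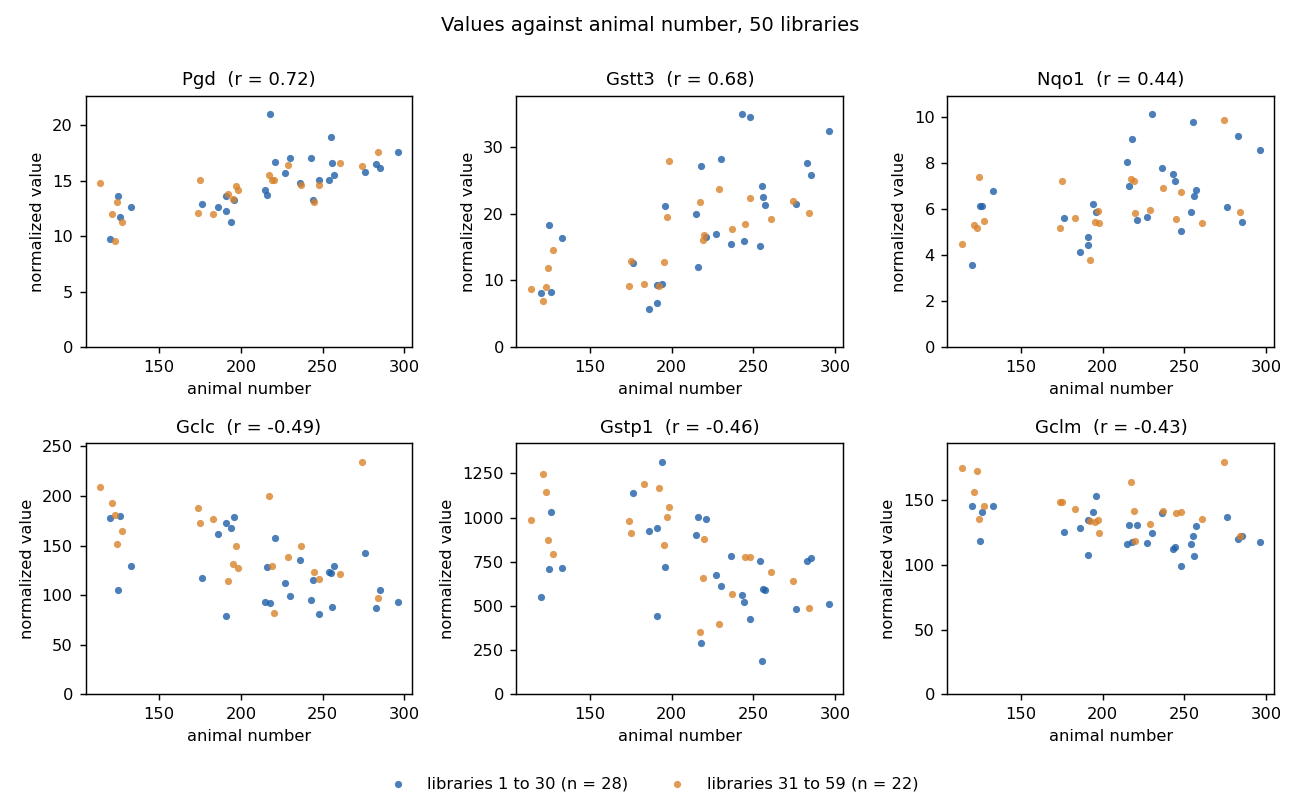
Normalized value of 6 members against animal number in 50 libraries, coloured by library set. Pgd, Gstt3 and Nqo1 lie higher at higher numbers and Gclc, Gstp1 and Gclm lower, with the sets intermixed for Pgd and Gstt3.

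The slopes did not differ between the sets beyond error for any member. The limma interaction called 0 of 36 (smallest adjusted p = 0.560), 1 member and 8.24% of all genes had an unadjusted p under 0.05, and 0.035% of all genes were called.

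Nqo1 served as a readout of the pathway, and 7 of 35 other members were related to its level, 6 that rose with it and 1 that fell. Among all genes 3.86% rose and 3.53% fell. The median slope was 0.13 over the members, as a log2 change per log2 unit of Nqo1, and 0.00 over all genes. Gstt3 rose most, by 1.24 ± 0.23 (adjusted p = 0.00121), followed by Gstm2 with 0.58 ± 0.12 (adjusted p = 0.00425), Pgd with 0.40 ± 0.083 (adjusted p = 0.00432) and Gsto1 with 0.24 ± 0.059 (adjusted p = 0.0108). Gstm4 and Hmox1 also rose, with slopes of 0.32 and 0.44. Gstp1 was the 1 member that fell (-0.74 ± 0.23, adjusted p = 0.0365). Of the cell markers, 4 of the 5 erythroid genes (Hbb-bs, Hbb-bt, Hba-a1 and Hba-a2), the periportal Arg1 and the hepatocyte gene Alb rose with Nqo1. Of the sex-dependent liver genes, 11 of 14 male-high genes fell and 4 of 9 female-high genes rose. The part of these genes in the members' relations to Nqo1 was not tested.

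The correlation of Gstt3 with Nqo1 was r = 0.61 (adjusted permutation p = 0.000198) and rho = 0.54 (0.00089), with 0.59 without the libraries numbered 18 and 57 and 0.65 and 0.49 within the sets. Several customary NRF2 targets did not pass the test with Nqo1: r was -0.23 for Gclc, -0.11 for Gclm, -0.21 for Txnrd1 and 0.06 for Gsr. Srxn1 missed limma's threshold (adjusted p = 0.0638), while its r of 0.38 had an adjusted permutation p of 0.0284 and its rho of 0.34 one of 0.0586. Its r was 0.34 without the libraries numbered 18 and 57, and 0.35 and 0.41 within the sets. Gstk1, Gstm7, Gstm1 and Gstm5 also missed limma's threshold and passed by permutation of r (adjusted p = 0.0253, 0.0276, 0.0409 and 0.0465). By permutation of rho, Gstm7, Gstm5 and Gstm3 passed (adjusted p = 0.0305, 0.0291 and 0.0364), and Gstk1 and Gstm1 did not (0.0538 and 0.0824). Without the libraries numbered 18 and 57, r was 0.29 for Gstk1, 0.35 for Gstm7, 0.25 for Gstm1 and 0.27 for Gstm5. In the same order it was 0.47, 0.44, 0.40 and 0.47 within the first set, and 0.19, 0.26, 0.38 and 0.20 within the second. With animal number as a covariate 0 members and 1 of all genes were called for Nqo1, and with the score of sex-dependent genes 0 members and 0 genes, where Gstp1's slope turned to 0.27 (adjusted p = 0.572). Without the library numbered 24 the count was 4, and without that numbered 44 it was 11. Over all genes 406 and 1247 were called in these settings, against 845 with all libraries.

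Of the genes outside the members with the pattern most like Nqo1, Exosc9 (r = 0.65), Blmh (0.62), Fam84b (0.60), Prdx3 (0.59) and Mmd2 (0.59) led over the 50 libraries. Other genes of the NRF2 pathway were taken from a list of 38, of which 35 were tested. With Nqo1, 3 of the 35 rose and 2 fell, against 3.86% and 3.53% of all genes. The carbonyl reductase Cbr1 (0.44 ± 0.10, adjusted p = 0.00854) and the aldo-keto reductase Akr1b7 (0.89 ± 0.25, adjusted p = 0.0203) led upward. The exporter Abcc2 (-0.51 ± 0.13, adjusted p = 0.0125) and Ugt1a6b (-0.41 ± 0.11, adjusted p = 0.0202) led downward. Akr1b7 had a low level, 1.35 ± 0.88 (SD). From this list, 5 of 35 were higher and 3 lower in the second set, against 7.07% and 6.42% of all genes. With animal number, 1 of 35 rose and 5 fell, against 7.49% and 6.73% of all genes. Nfe2l1 (-0.21 ± 0.052, adjusted p = 0.00531) and Mafg (-0.30 ± 0.079, adjusted p = 0.00939) were among the 5 that fell.

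For the mRNA level of Nfe2l2, limma called 0 of 35 members (smallest adjusted p = 0.124). An unadjusted p under 0.05 was found for 1 member and 16.9% of all genes, with 1.03% of all genes called upward and 1.26% downward. Its correlation with Nqo1 was r = 0.11 (permutation p = 0.433). By permutation, Ugdh ran against Nfe2l2 (r = -0.37, adjusted p = 0.04, rho = -0.42, adjusted p = 0.0168). For Pgd rho of 0.38 passed (adjusted p = 0.0291) but r of 0.25 did not (0.193). These p-values were adjusted over all 178 relations together, whose many strong relations to other measures ease the threshold. No adjustment was made within the relations to Nfe2l2 alone. Unadjusted permutation p were 0.009 and 0.00268 for Ugdh's r and rho, and 0.00626 for Pgd's rho. Without the libraries numbered 25 and 56 r was -0.34 for Ugdh and 0.17 for Pgd, and within the first and second sets -0.16 and -0.50 for Ugdh and 0.08 and 0.41 for Pgd. Of the other pathway genes, the glutathione-degrading enzyme Chac1 alone was called and fell by 2.31 ± 0.29 per log2 unit of Nfe2l2 (adjusted p = 1.57e-06). The level of Chac1 was low, at 2.28 ± 1.39 (SD).

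With Keap1, 3 of 35 members rose and 1 fell, against 7.42% and 7.31% of all genes. An unadjusted p under 0.05 was found for 10 of the 35 members and for 29.9% of all genes (limma). By these counts the members did not stand out from all genes. Gss rose by 0.69 ± 0.16 per log2 unit of Keap1 (adjusted p = 0.00276), Gsta3 by 0.93 ± 0.27 (adjusted p = 0.0145) and Ephx1 by 0.91 ± 0.30 (adjusted p = 0.0366), while Pgd fell by 0.82 ± 0.24 (adjusted p = 0.0172). Keap1 itself spanned only 1.39-fold between libraries, and 29.2% of its variance was counting error. Of the other pathway genes 14 of 35 rose with Keap1 and 0 fell, led by Blvrb (1.22 ± 0.31, adjusted p = 0.00726) and Nfe2l1 (0.84 ± 0.22, adjusted p = 0.00987), and 4 of the 5 stellate markers and the periportal Hal fell, while Hnf4a, Serpina1a and the pericentral Cyp2e1 rose. The part of these markers in the relation was not tested. With animal number as a covariate only Gss was still called, and within either set 0 of the 4. Ephx1 was lost without the library numbered 44 (adjusted p = 0.063).

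Many liver genes differ between the sexes under the control of growth hormone, and they vary among males as well. A score was made from 14 male-high and 9 female-high liver genes, none of them members, as the mean standardized level of the former minus that of the latter, so that high values mean a more male-typical liver. This comparison was added after the data were seen. The score ran from -4.26 in the library numbered 24 over a median of -0.00 to 1.89. Of 36 members, 4 rose with it and 12 fell, where 10.4% of all genes rose and 9.76% fell.

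Gstp1, a transferase known to be higher in the liver of male than of female mice, followed the score most closely. It rose by 0.37 ± 0.029 on the log2 scale per unit of the score, 1.29-fold (adjusted p = 2.07e-14). Its r was 0.87 (adjusted permutation p = 0.000198) and rho 0.86 (0.000297), with 0.82 without the libraries numbered 24 and 45 and 0.88 and 0.85 within the first and second sets. The library numbered 24 had the lowest score and the lowest Gstp1 value, 187.

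Mgst1 (chr6:138140316-138156755, on the other segregating chromosome) also rose (0.10 ± 0.017 per unit, adjusted p = 6.61e-06, r = 0.67). It ran from 1185 over a median of 1959 to 2452. Ugdh and Taldo1 rose by 0.09 and 0.04. Outside the members, Hsd17b12 (r = 0.83), Cyp2d9 (0.81), Abcg2 (0.79), Cyp2e1 (0.79) and Susd4 (0.79) were most like Mgst1, and Cyp2d9 and Susd4 were in the score.

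Members that fell with the score were led by Hmox1 (-0.16 ± 0.026, adjusted p = 6.32e-06), Gstt3 (-0.29 ± 0.053, adjusted p = 5.59e-05), Nqo1 (-0.14 ± 0.027, adjusted p = 0.000184) and Gstm7 (-0.10 ± 0.019, adjusted p = 0.00021). Gstk1 (chr6:42245935-42250447), a mitochondrial and peroxisomal transferase at 67.3 to 128 with a median of 82.5, also fell (-0.08 ± 0.017, adjusted p = 0.000816). So did Gstm2, Gstm3, Gsta4, Gstt2, Gsto1, Mgst3 and Pgd. The genes most like Gstk1 were Atp5g1 (r = 0.78), Cox7a2l (0.76), Fuom (0.75), Ndufb10 (0.74) and Atp6v1e1 (0.74), and those most like Pgd included Slc20a2 (0.79), Smpd3 (0.79), Cdcp1 (0.77) and Crip2 (0.76).

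The score itself fell with animal number (r = -0.37, permutation p = 0.00708, adjusted p = 0.0323). With the score as a covariate, 5 members were called for animal number in place of 9. The calls of Gstt3, Pgd and Gclc were kept, Mgst3 (-0.40 ± 0.11) and Gsta2 (-0.52 ± 0.14) were added, and the calls of Nqo1 (adjusted p = 0.197), Gstm2 (0.248), Gstp1 (0.218), Gsta3 (0.141), Gclm (0.073) and Ugdh (0.204) were lost. The 4 hemoglobin genes fell with the score and Alas2 rose, and Cyp2e1, Glul and Cyp1a2 of the 7 pericentral genes rose. The stellate genes Dcn, Des and Colec11, the periportal Arg1, Hal and Gls2, Alb, Marco and Lyve1 fell, and Cyp2f2, Hnf4a and Clec4g rose. Their part in these relations was not tested.

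**Figure D4:**
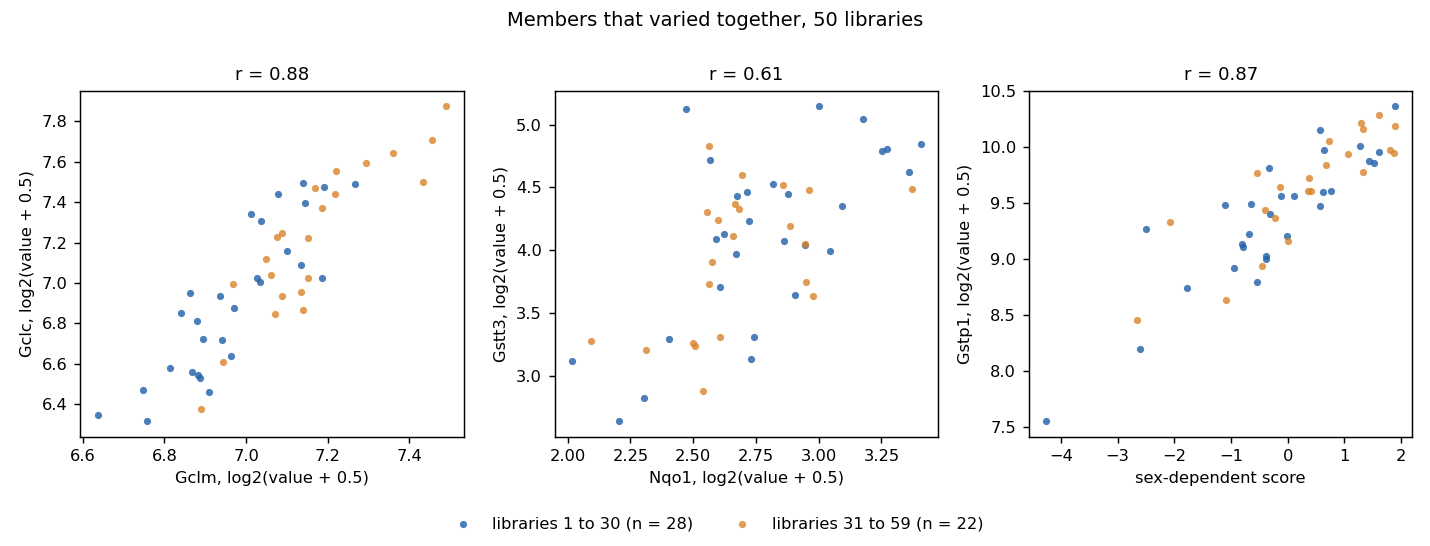
Log2 values of 50 libraries for Gclc against Gclm, Gstt3 against Nqo1, and Gstp1 against the score of sex-dependent genes, coloured by library set. The points of the first and last panels lie along a line in both sets (r = 0.88 and 0.87), and those of Gstt3 and Nqo1 scatter more widely (r = 0.61).

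Over 630 pairs the median r was 0.13, against 0.00 over all 65385330 pairs of tested genes, and 51 pairs (8.10%) exceeded 0.5, against 2.17%. These values are descriptions over the same 50 libraries, whose shared depth, sets and animal numbers enter every pair. The closest pair was Gclc and Gclm, the 2 subunits of 1 enzyme on chromosomes 9 and 3, with r = 0.88, 0.86 within the first and 0.88 within the second set. Each had the other as the most similar of all genes tested. Ugdh went with both (r = 0.72 with Gclc and 0.69 with Gclm).

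Gsta2 and Gsta4 were likewise each other's nearest gene (r = 0.78), and Mgst3 varied with both (0.73 and 0.64). Gstm1 and Gstm3 had r = 0.75, and each shares sequence with near copies. Across the 21 pairs of mu class genes r ran from 0.09 to 0.75 with a median of 0.35, and across the 6 pentose phosphate pairs from -0.12 to 0.38 with a median of 0.04. Pgd varied instead with Gstt3 (r = 0.74), on another chromosome. Mgst1 and Hmox1 had the lowest r (-0.66), followed by Gstp1 and Pgd (-0.60), and 7 pairs (1.11%) lay below -0.5, against 1.75% of all pairs of genes. Gclc ran against Gstt3 (-0.55) and Pgd (-0.50).

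**Figure D5:**
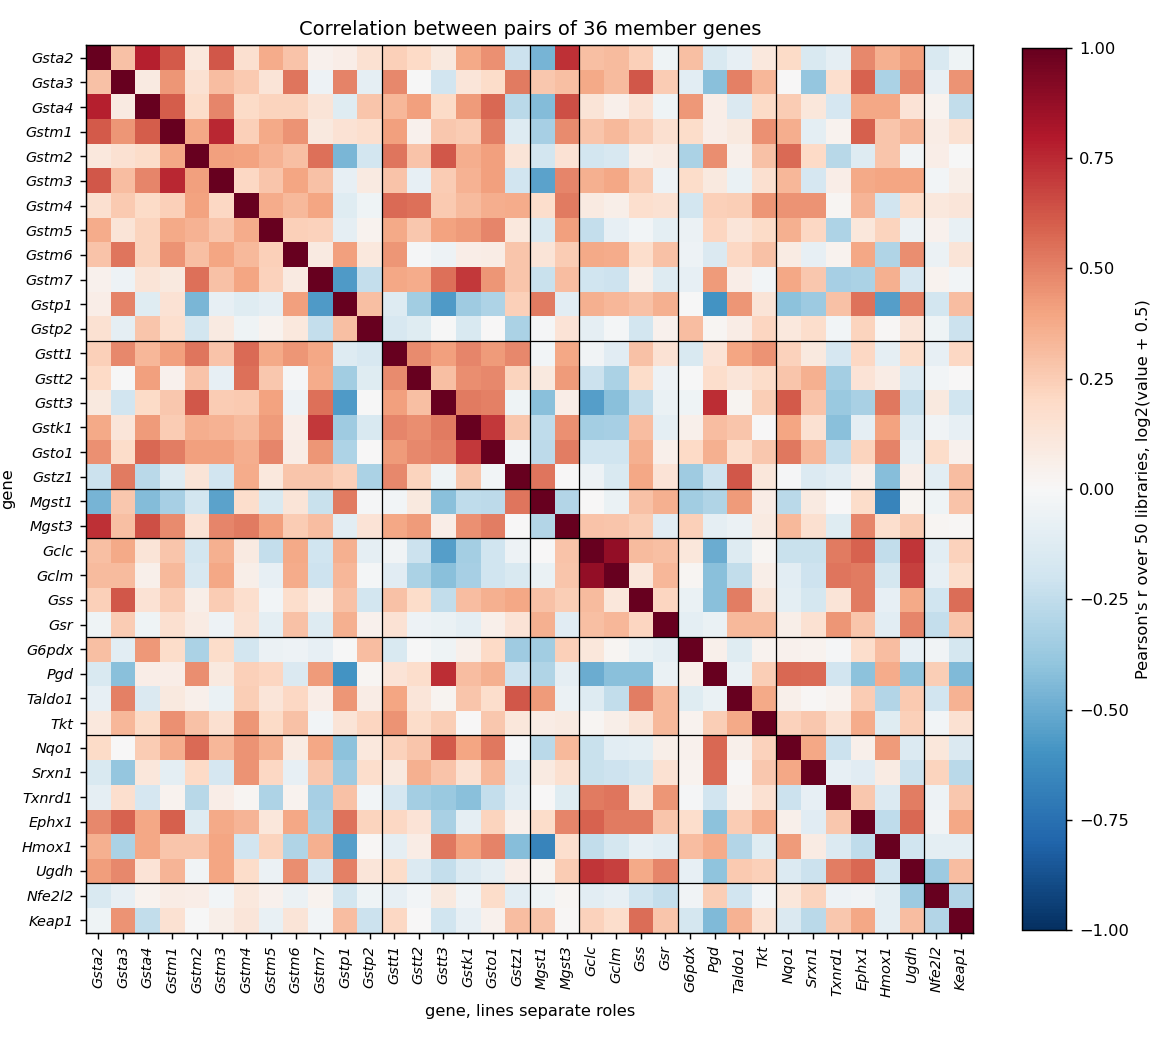
Pearson's r over 50 libraries for every pair of 36 members, ordered by role, red for positive and blue for negative. The darkest squares off the diagonal are Gclc with Gclm (0.88) and Gsta2 with Gsta4 (0.78).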

How the data were processed

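Poly(A)-selected liver RNA of 50 libraries was sequenced with a stranded kit. Per the study's methods, the authors removed adapters, mapped reads with Hisat2 to the Ensembl assembly GRCm38.p5 and obtained gene counts from HTSeq (0.11.1), and low-count genes were filtered out before edgeR normalization. The values deposited by the authors are this normalized signal, CPM of library sizes scaled between libraries, and their column sums were 886171 to 1120647. Dividing by the value of 1 read gave whole reads for 100% of values (tolerance 0.01), on which edgeR 4.0.16 was run as an alternative. It called 1648 genes for library set and 1593 for animal number, where limma called 1542 and 1626. Because the sums differ, the values are treated as scaled signal, with the tests planned for CPM unchanged.

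Gene symbols and positions came from GENCODE M21. Tests used limma 3.58.1 (R 4.3.3) on log2(value + 0.5) of the 11436 genes with a mean of at least 1. They were 2-sided and adjusted by Benjamini-Hochberg over all of these genes at 0.05. Only the library set and animal number tests were also run on simulated reads, which were drawn independently for each gene. The pseudocount understates fold changes of low genes. With a single group there is no treated comparison. Limma's p-values set a slope or difference against the spread that remains between libraries. Libraries that share an animal number counted as separate in the main tests. Permutation p-values used 100000 resamples, of which 1e-05 is the smallest possible. They were adjusted by Benjamini-Hochberg over all 178 relations together, not separately for each index gene, the score or animal number. The members, lists and tests were chosen with earlier results of these data known. Members were named in full where they passed a test (at most 4 in each direction), had the 4 highest or 2 lowest ranks of variation, lay on chromosomes 4 or 6, or were Nqo1, Nfe2l2 or Keap1. At most 2 other pathway genes were named in each direction, and cell markers and further called members were named after their values were seen. Alternatives covered the pseudocount, filter, scaling, depth, composition, score, sets, animal numbers and single libraries. A gene that the rule on similar patterns names is not reported here.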

Additional observations from a re-analysis of the deposited data

Results flagged for a closer look

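Ugt1a6a, a glucuronosyltransferase on the list of other NRF2 pathway genes, changed with animal number differently in the library sets. The slope was -0.37 on the log2 scale per 100 numbers in the first set (n = 28, r = -0.53) and 0.41 in the second (n = 22, r = 0.62), and the difference of 0.77 ± 0.16 passed limma's interaction test (adjusted p = 0.0404). Its level was low, 2.54 ± 0.70 in the first and 1.74 ± 0.50 in the second set. Adding the 10 highest genes' share of reads to the fit gave an adjusted p of 0.222, and the call was also lost without the library numbered 24 (0.0596), without the libraries that share an animal number (0.0903) and with the counted reads (0.0501). The range over its alternatives was 0.0228 to 0.222.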

How the results depend on the processing

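Directions held in every alternative for the members called for library set, animal number, Keap1 and the score. The exception was Gstp1 with Nqo1, which turned to 0.27 with the score as a covariate. Txnrd1, Gclm and Ugdh for library set, Gstt3, Pgd and Gclc for animal number and Gss for Keap1 also kept their calls in all alternatives over both sets, while for Nqo1 0 members did so. For library set, 3 members were called with the counted reads, with the score, without the libraries that share an animal number and without the library numbered 24, and all genes called numbered 889 with the counted reads and 2440 without the library numbered 44. For animal number, the score as a covariate left 5 members and 718 genes, and 2 and 1 members were called within the first and second sets. The difference of slopes gave 2 genes with the counted reads, without the shared animal numbers or without the library numbered 24, 0 with the share of the 10 highest genes and 17 with the score. For Nqo1, 2 members and 30 genes were called with the share of the 10 highest genes, and 0 and 0 with the score. They were 4 and 406 without the library numbered 24, 0 and 1 with animal number, and 11 and 1247 without the library numbered 44. Within the sets 4 and 1 members were called for Nqo1. No count over all genes was made within a set, in any comparison. For Nfe2l2, 153 genes were called without the shared animal numbers. For Keap1, 2 members were called with the score, 1 member and 972 genes with animal number, and 0 and 0 members within the sets. For the score, 9 and 3 members were called within the sets, and 1171 and 1454 genes with the share of the 10 highest genes and with animal number. The causes were not tested, and each set alone holds fewer libraries. The alternatives without the library numbered 44, within sets and for the score were chosen after seeing the data. No paired analysis was possible because the labels give a single group. Genes with few reads, such as G6pdx, Gstm5 and Nqo1, are limited by counting error, and so is Keap1, which varied little.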
